A study of Mus musculus with 16 samples.

Results

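The synaptic vesicle and SNARE fusion genes are 8 genes chosen by name, Snap25, Stx1a, Vamp1, Vamp2, Syt1, Syn1, Syn2 and Syp, out of the 36930 entries of the table of normalized reads. Each name stood for a single entry, and all 8 passed the filter on low values that left 21183 genes. The values came from the brain cortex of 16 C57BL6 pups at an age of 7 days, 8 Avil-ChR2 and 8 ChR2-flfl, and were used to ask how pain in the first days of life changes cortical gene expression. All pups of both genotypes were exposed to blue light for 1 h per day from postnatal day 1 to 5. ChR2-flfl pups carried the floxed channelrhodopsin-2, a light-gated cation channel, without Cre. Avil-ChR2 pups also carried a Cre driven by the promoter of Avil (advillin). The paper describes this promoter as acting mostly in nociceptive sensory neurons outside the brain. Replicates were different pups, and the labels named 9 pups as female and 7 as male. According to the paper, the controls were litter mates without Cre. The labels do not say which pups were of the same litter, so that litter was in none of the tests.

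Neurons release transmitter when a synaptic vesicle fuses with the presynaptic membrane. The vesicle SNARE protein synaptobrevin (Vamp1, Vamp2) zips together with syntaxin 1A (Stx1a) and SNAP-25 (Snap25) on the plasma membrane, and the calcium sensor synaptotagmin 1 (Syt1) triggers the fusion. Synapsins (Syn1, Syn2) hold vesicles in a reserve pool within the terminal, and synaptophysin (Syp) is an abundant vesicle membrane protein that binds synaptobrevin. The first postnatal weeks are the time in which most cortical synapses form in mice.

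On GRCm38, Snap25 lies on chr2:136713438-136782428 (plus strand), Stx1a on chr5:135023487-135051104 (plus), Vamp1 on chr6:125215581-125222306 (plus), Vamp2 on chr11:69088528-69092381 (plus), Syt1 on chr10:108497650-109010975 (minus), Syn1 on chrX:20860511-20920918 (minus), Syn2 on chr6:115134902-115282626 (plus) and Syp on chrX:7638580-7653256 (plus). Syt1 shares chromosome 10 with Avil, at a distance of 17989 kb. In the annotation of the table, all 8 genes carry the term synapse, 7 of 8 the term synaptic vesicle (all but Vamp1), and 6 of 8 the term SNARE complex (all but Syn1 and Syp).

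Vamp1 and Vamp2, and Syn1 and Syn2, are pairs of similar genes, so that their reads could be confused. The longest stretches that the protein-coding transcripts of each pair have in common (GENCODE vM21, GRCm38) are shown because their length bears on whether a read can be assigned to the right gene of the pair.
Vamp1 and Vamp2 (18 bases, 1 of 2 stretches of this length): gaggtggtggacatcatg
Syn1 and Syn2 (26 bases): aactacaaggcctacatgaggacatc
Both lie in coding sequence, and each runs across the border of consecutive exons in both genes of its pair. The first joins exons 2 and 3 (Vamp1 chr6:125218698-125218700 and chr6:125218911-125218925; Vamp2 chr11:69089224-69089226 and chr11:69089731-69089745). The second joins exons 7 and 8 (Syn1 chrX:20865119-20865135 and chrX:20865021-20865029; Syn2 chr6:115254716-115254732 and chr6:115261655-115261663). Each is shorter than the 50 bases that a read needed to be aligned. Stx1a, Vamp2, Syt1 and Syn1 had no stretch of 50 bases in common with the transcripts of any other gene. Of the stretches of 50 bases of each gene, 15 of 6776 were shared for Snap25, 7 of 10198 for Vamp1, 42 of 6977 for Syn2 (all with Timp4 on the opposite strand) and 829 of 5157 for Syp (all with the antisense gene Gm14703).

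Other entries of the table overlapped Snap25, Syt1, Syn1 and Syn2. The paper names a stranded library kit, but whether the counting used the strand is not stated, so that reads of overlapping genes may have been assigned to either. Snap25 overlapped Gm32659 (0.641 to 1.78 CPM, reads scaled to a common library size) and Syt1 overlapped LOC105245279 (0 to 10.7 CPM), which are both low beside their partners, and Syt1 also contained Gm5136, without reads. Syn1 shared 11 bases with Araf, a kinase gene with 139 to 160.3 CPM. Timp1 and Mir5617 inside Syn1 and Timp4 inside Syn2 were without reads in all 16 pups. Of the entries with an ontology annotation, 88.6% of 1261 that lay fully inside another entry were without reads in every pup, compared with 8.61% of 20605 others, so that the values of Syn1 and Syn2 may include reads of Timp1 and Timp4. Gm14703 was not among the overlapping entries, so that the values of Syp may also include reads of this antisense gene. Neither was tested.

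Promoter sequences of RefSeq (GRCm38.p6, 250 bases before and 50 after a start) were found for 6 of the 8 genes, all but Snap25 and Vamp2, in 8 windows. The full neuron-restrictive element was not searched for. Among the members, only Syn1 had a window that held its left arm or the cAMP response element. The part of this window before the start is shown because these motifs are known from neuronal and activity-dependent promoters. It lies on chrX:20920919-20921168, minus strand, and capitals mark both motifs.
Syn1: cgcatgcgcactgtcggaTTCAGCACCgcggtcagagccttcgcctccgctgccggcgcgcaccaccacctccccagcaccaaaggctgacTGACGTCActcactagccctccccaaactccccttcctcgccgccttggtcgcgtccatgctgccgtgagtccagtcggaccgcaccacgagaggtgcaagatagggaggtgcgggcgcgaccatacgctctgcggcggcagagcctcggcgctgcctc
The letters TTCAGCACC, the left arm of the neuron-restrictive element, stood at -232 to -224 from the start, and TGACGTCA, the cAMP response element, at -159 to -152. On either strand, they occurred in 0.371% and 1.79% of 32851 promoter windows of the same length. The GC box GGGCGG was found in windows of Stx1a, Syn2, Syp, Syt1 and Vamp1, and in 35.7% of all windows. The E-box CACGTG (7.15% of all windows), TATAAA (13.6%) and the Egr site GCGTGGGCG (0.612%) were found in no window of a member. No motif overlapped another one in the Syn1 window, and a match of letters is a description of the sequence only.

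The depth was 30549126 reads in ChR2-flfl replicate 3 and 47791532 to 48711134 reads in the other 15 pups. Avil, of which the promoter drives the Cre, was at 0.825 to 1.46 CPM in ChR2-flfl and 37.3 to 46.4 CPM in Avil-ChR2 pups, with no overlap. The source of these reads in cortex was not tested. Avil-ChR2 replicate 4 is female in the labels, but Ddx3y (54.7 CPM), Eif2s3y (64.6), Kdm5d (22.5) and Uty (17.9), all on the Y chromosome, were at the level of the males, and a list of the study gives this pup as male. Xist, the long RNA of the inactive X, was listed at 0 in 8 of the 9 pups labelled female and failed the filter, so that it gave no check of sex. The summed CPM of markers of cortical excitatory neurons (Tbr1, Neurod6, Neurod2, Fezf2) ran from 339 to 445 in ChR2-flfl and from 383 to 417 in Avil-ChR2 pups, and the hindbrain genes Hoxa5, Hoxb3, Hoxb4 and Hoxb5 summed to at most 0.206 CPM in any pup. In the marker lists, an unadjusted limma p under 0.05 was found for Avil, for Map2 of the neuronal list (log2 difference -0.077) and for Ttr of the choroid plexus list, which summed to 0 to 0.351 CPM in ChR2-flfl and 0.103 to 1.30 CPM in Avil-ChR2 pups, with Kcnj13 at 0 in all. In bulk cortex, fewer cells of a type and less RNA per cell cannot be told apart.

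The levels of the 8 genes were compared with each other per length, as CPM per kb of the union of all exons (GENCODE vM21, mean ± SD of 16 pups). Vamp2 was the highest, with 212 ± 10.3 CPM per kb. Syp followed with 144 ± 7.37, Syt1 with 138 ± 5.27, Stx1a with 134 ± 5.75 and Syn1 with 131 ± 5.96 CPM per kb. With this length, the ranges of the neighbours among these 4 overlapped. Syp exceeded Syt1 in 13 of 16 pups, Syt1 exceeded Stx1a in 10 of 16 and Stx1a exceeded Syn1 in 11 of 16. Snap25 had 105 ± 4.92 and Syn2 45.0 ± 2.94 CPM per kb, each below its upper neighbour in all 16 pups without overlap. Vamp1, the synaptobrevin best known from neurons of the spinal cord and brainstem, stood apart with 1.04 ± 0.111 CPM per kb, and Syn2 was 38.1 to 55.7 times higher per length.

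The length of a gene depends on the annotation, and the Vamp1 model extends beyond the entry of the table. With the span of that entry (6726 bp, the longest the gene can be there), Vamp1 would be at 1.58 ± 0.167 CPM per kb. This is a lower bound, because any shorter length within the entry gives a higher level. The ratio of Syn2 to Vamp1 given above would then be smaller. With the longest transcript as the length, Vamp2 was at 366 ± 17.9, Syp at 263 ± 13.5, Syt1 at 239 ± 9.11, Stx1a at 165 ± 7.08, Snap25 at 146 ± 6.85, Syn1 at 133 ± 6.03, Syn2 at 82.2 ± 5.36 and Vamp1 at 1.86 ± 0.197 CPM per kb, so that 6 of 8 kept their place, and Snap25 and Syn1 changed theirs. Snap25 was then above Syn1 in 15 of 16 pups. Syp was then above Syt1 in 16 of 16 pups with overlapping ranges, and Syt1 above Stx1a in 16 of 16 without overlap. The closeness of these 3 genes per kb of exon thus depended on the length used.

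**Figure D1:**
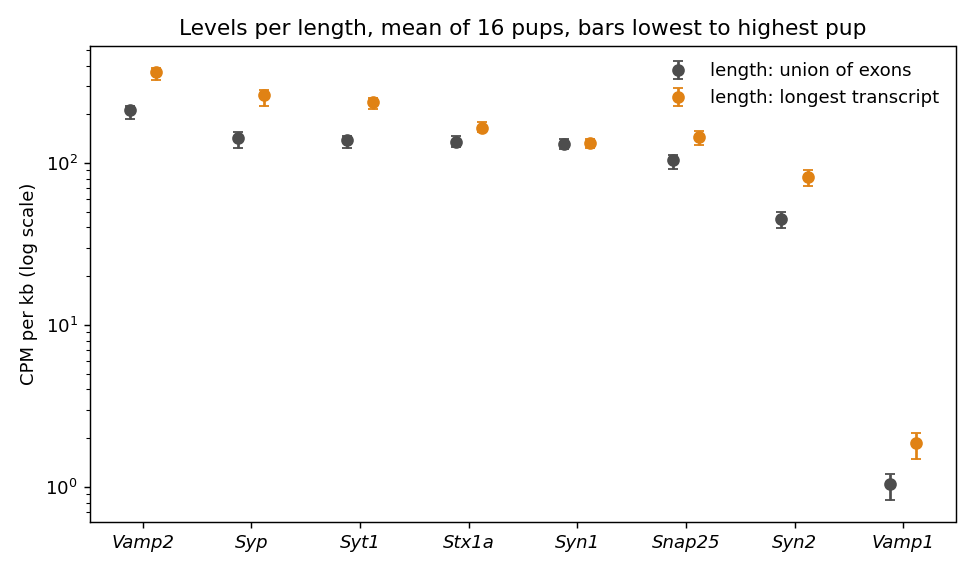
Level per length of the 8 genes (y axis, CPM per kb on a log scale) with the union of exons (grey) or the longest transcript (orange) as the length. Points are means of 16 pups and bars run from the lowest to the highest pup, and Vamp1, at 1.04 or 1.86 CPM per kb, lies far below the other 7 genes with either length.

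The comparison of the genotypes asked whether the machinery of vesicle fusion differed after early life pain. As all pups were exposed to light, an effect of pain cannot be told apart from that of carrying Cre and expressing channelrhodopsin-2. All 8 genes had overlapping ranges in the genotypes, and their differences were small, between 0.54% and 5.41% higher in Avil-ChR2 pups. At an adjusted p under 0.05 (limma with Benjamini-Hochberg adjustment over 21183 genes), 0 of 8 were called, compared with 0.00944% of all genes (2 genes). At an unadjusted p under 0.05 it was also 0 of 8, compared with 5.41% of all genes, and limma-voom on the recovered reads gave 0 of 8 at either threshold. The estimates were higher in Avil-ChR2 pups for 8 of 8 genes, compared with 51.4% of all genes, and their median log2 difference was 0.041, compared with 0.0020 over all genes tested. The 8 genes come from the same pups and their values go together over pups, as described further down, so that the 8 directions are not independent of each other. The genotype ranges were separate for 0.0283% of all genes (6 genes) and for none of the 8.

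The plasma membrane SNAREs were nearly level. Snap25, which contributes a pair of helices to the SNARE bundle, had its lowest, median and highest values in ChR2-flfl pups at 627, 719.8 and 766 CPM, and in Avil-ChR2 pups at 680.1, 709 and 766 CPM. The highest pups of the genotypes were thus alike, and the lowest was ChR2-flfl replicate 1. The means were 709.7 ± 40.2 and 713 ± 27.8 CPM (SD, n = 8 each), and the log2 difference of 0.0078 had a 95% interval from -0.065 to 0.080 (limma, adjusted p = 0.993). Stx1a, the partner of Snap25 on the membrane, had 337, 351 and 389.6 CPM in ChR2-flfl and 342, 361 and 383 CPM in Avil-ChR2 pups. All Avil-ChR2 pups lay within the range of the controls. The log2 difference was 0.028 with an interval from -0.037 to 0.092 (limma, adjusted p = 0.969). It was 0.048 without ChR2-flfl replicate 5, 0.018 without ChR2-flfl replicate 6 and 0.016 without Avil-ChR2 replicate 7.

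The vesicle SNAREs differed from each other mainly in their level and spread. Vamp2, the main synaptobrevin of the forebrain, had 714, 792 and 854 CPM in ChR2-flfl and 752, 825 and 858 CPM in Avil-ChR2 pups. The ranges were nearly the same apart from their lower ends. The log2 difference was 0.036 with an interval from -0.037 to 0.110 (limma, adjusted p = 0.954), and it was 0.014 without ChR2-flfl replicate 1. Vamp1 had 8.43, 10.7 and 11.8 CPM in ChR2-flfl and 9.37, 11.0 and 12.2 CPM in Avil-ChR2 pups. These rest on 342 to 594 reads per pup, and the SD between pups was 10.9% and 10.5% of the mean, wider than the 5.41% that counting alone gives at the lowest depth. Its interval was the widest of the 8, from -0.090 to 0.217 around a log2 difference of 0.064 (limma, adjusted p = 0.97), so that a change of up to 16.2% is within its error. The difference was 0.022 without ChR2-flfl replicate 4 and 0.038 without Avil-ChR2 replicate 5.

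Syt1, the sensor for fast release, had 1039, 1161 and 1187 CPM in ChR2-flfl and 1082, 1157 and 1219 CPM in Avil-ChR2 pups. The medians were almost equal, and the lowest value belonged again to ChR2-flfl replicate 1. The log2 difference was 0.015 with an interval from -0.049 to 0.078 (limma, adjusted p = 0.986). Without ChR2-flfl replicate 1, the sign of the differences of Syt1 (-0.0054) and Snap25 (-0.017) turned, and that of Snap25 also without Avil-ChR2 replicate 6 (-0.0072).

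The synapsins had the estimates farthest from 0 in relation to their error. Syn1, the synapsin of which the promoter is shown above, had 401, 419 and 459.8 CPM in ChR2-flfl and 421, 442 and 462 CPM in Avil-ChR2 pups. Of the Avil-ChR2 pups, 7 of 8 exceeded the control mean (426 ± 23.4 CPM), but all except 1 were within the range of the controls. The log2 difference was 0.050 with an interval from -0.015 to 0.116 (limma, unadjusted p = 0.12, adjusted p = 0.945). Without ChR2-flfl replicate 2, the unadjusted limma p was 0.039, in a fit with 7.46% of all genes under 0.05. With 1 pup left out, the log2 difference of Syn1 ran from 0.038 to 0.066. Syn2 had 278, 313 and 326 CPM in ChR2-flfl and 294, 332 and 350.4 CPM in Avil-ChR2 pups. Its means were 308 ± 17.2 and 325 ± 21.4 CPM (SD, n = 8 each), and 5 of 8 Avil-ChR2 pups exceeded all controls. The log2 difference of 0.076 was the largest of the 8 estimates, with an interval from -0.0099 to 0.162 (limma, unadjusted p = 0.080, adjusted p = 0.927; two-sided exact permutation p = 0.11). The unadjusted limma p was 0.035 without Avil-ChR2 replicate 1 and 0.026 without Avil-ChR2 replicate 2. In these fits, 5.19% and 5.61% of all genes were under 0.05. With 1 pup left out, the log2 difference of Syn2 ran from 0.055 to 0.096.

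Syp, a tetraspan protein of the vesicle membrane, had 644, 743 and 787 CPM in ChR2-flfl and 715, 761 and 805 CPM in Avil-ChR2 pups. The lowest value, from ChR2-flfl replicate 1, lay well below that of all other pups. The log2 difference was 0.045 with an interval from -0.030 to 0.121 (limma, adjusted p = 0.946), and it was 0.018 without ChR2-flfl replicate 1. Two-sided exact permutation tests over all splits of 8 against 8 pups gave unadjusted p-values from 0.11 (Syn2) to 0.843 (Snap25) for the 8 genes, where the design could reach 0.00016.

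**Figure D2:**
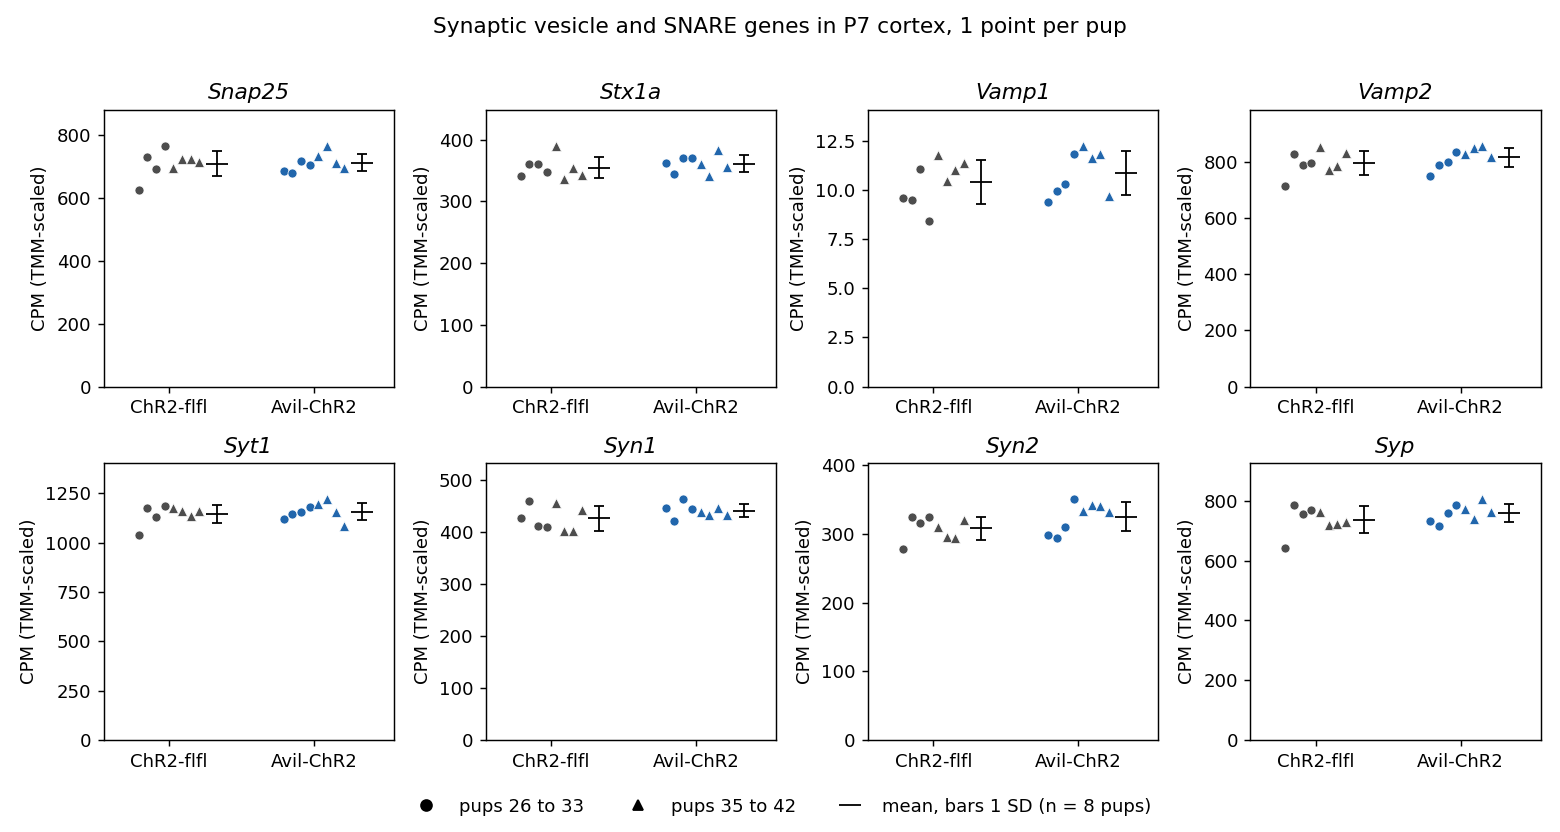
Normalized reads of the 8 genes in each pup (y axes, TMM-scaled CPM from 0), for ChR2-flfl (grey) and Avil-ChR2 (blue), circles for pups 26 to 33 and triangles for pups 35 to 42, with mean and SD (n = 8). The genotypes overlap for all 8 genes, and ChR2-flfl replicate 1, the first grey circle, is the lowest pup for Snap25, Vamp2, Syt1, Syn2 and Syp.

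The pup numbers of the labels form a run from 26 to 33 and another from 35 to 42, with 4 pups per genotype in each. What the runs stand for is not stated. Within pups 35 to 42, Syn2 was at 294.9 to 320.8 CPM in ChR2-flfl and at 331 to 343 CPM in Avil-ChR2 pups, without overlap, which was found for 3.19% of all genes and for 1 of the 8. Its log2 difference there was 0.142 (two-sided exact permutation p = 0.029, the smallest that 4 against 4 allows, not adjusted for the 8 genes). Within pups 26 to 33, Syn2 ranged from 278 to 326 CPM in ChR2-flfl and from 294 to 350.4 CPM in Avil-ChR2 pups, and the log2 difference was 0.0098 (exact permutation p = 0.857). None of the 8 genes had separate ranges there, compared with 1.81% of all genes. At an unadjusted limma p under 0.05 were 0 of 8 genes in pups 26 to 33 (3.17% of all genes) and 1 of 8, Syn2, in pups 35 to 42 (5.47% of all genes). The test of the difference between the runs themselves, a genotype by run term in limma added after seeing the data, had an unadjusted p of 0.11 and an adjusted p of 1.00 for Syn2. The differences of the other 7 genes lay between -0.0090 (Snap25) and 0.106 (Vamp1) in pups 26 to 33 and between 0.0050 (Syt1) and 0.070 (Syp) in pups 35 to 42.

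**Figure D3:**
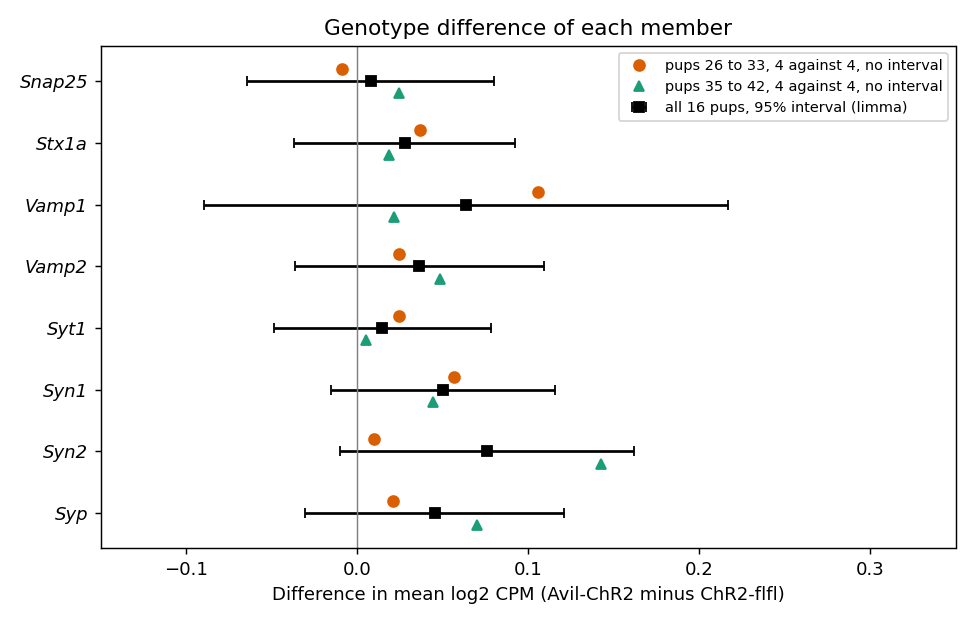
Difference in mean log2 CPM (x axis, Avil-ChR2 minus ChR2-flfl) for each of the 8 genes. Squares with bars are the estimates of all 16 pups with 95% intervals from limma, which all include 0, and circles and triangles are the differences within pups 26 to 33 and 35 to 42, which lie apart for Syn2 (0.0098 and 0.142).

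Across both genotypes, Vamp1 and Vamp2 had higher estimates in pups 35 to 42 than in pups 26 to 33, by 0.173 and 0.067 on the log2 scale. Neither passed the adjustment (limma, unadjusted p = 0.013 and 0.049, adjusted p = 0.251 and 0.397). At an unadjusted p under 0.05 were thus 2 of 8 genes, compared with 12.5% of all genes, and 0 of 8 were called at an adjusted p under 0.05, compared with 0.123% of all genes.

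Syn1 and Syp are on the X chromosome, which made them of interest in the comparison of the sexes. With the sexes of the labels, Syn1 was at 431 ± 22.0 CPM in 9 females and 436 ± 17.5 CPM in 7 males. Syp was at 759 ± 26.1 and 734 ± 48.7 CPM. These 9 females include Avil-ChR2 replicate 4, of which the Y-linked genes were at the level of the males. This pup held 444.6 CPM of Syn1 and 787.6 CPM of Syp, the highest Syp value of the 9. With this pup as male, Syp ran from 715 to 786.8 CPM in 8 females and from 644 to 804.9 CPM in 8 males. The log2 differences of females against males used the sexes of the labels, with genotype in the model. They were -0.022 for Syn1 (95% interval -0.090 to 0.045, limma, adjusted p = 0.988) and 0.045 for Syp (-0.031 to 0.122, adjusted p = 0.988). None of the 8 genes was called for sex, compared with 0.0425% of all genes (9 genes), and none had an unadjusted p under 0.05, compared with 4.46%. In a separate fit with Avil-ChR2 replicate 4 as male, 0 of 8 were called for sex, compared with 11 of 21183 genes. For the genotype by sex interaction, 0 of 8 genes were called (0% of all genes), 0 of 8 were at an unadjusted p under 0.05 (4.31% of all genes), and the interaction estimates ranged from -0.108 (Snap25) to 0.135 (Vamp1) on the log2 scale.

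Ratios of related genes within a pup do not depend on the scaling of its library. The Vamp1 to Vamp2 ratio of CPM was 0.0131 ± 0.00129 in ChR2-flfl and 0.0133 ± 0.000981 in Avil-ChR2 pups (SD, n = 8 each). The difference of the log2 ratio was 0.027 (two-sided exact permutation p = 0.687, 0.917 after Benjamini-Hochberg adjustment over 4 ratios, of which 3 are reported here). For Syn1 to Syn2 the ratios were 1.38 ± 0.0862 and 1.36 ± 0.0969, with a log2 difference of -0.026 (exact permutation p = 0.587, adjusted 0.917). In pups 35 to 42 alone this was -0.098 (exact permutation p = 0.029, the smallest possible there), and in pups 26 to 33 it was 0.047. The vesicular glutamate transporters Slc17a7 and Slc17a6, which replace each other in the cortex during development, had a ratio of 8.46 ± 1.21 in ChR2-flfl and 9.27 ± 1.02 in Avil-ChR2 pups, and 6 of 8 Avil-ChR2 pups exceeded the control mean. This log2 difference of 0.137 also did not exceed the spread (exact permutation p = 0.17, adjusted 0.681).

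The wider vesicle cycle was described with a list of 112 other genes, of which 109 passed the filter (Vamp7 and Stxbp3 were not found under these names, and Slc18a3 was without reads). At an adjusted p under 0.05, 0 of 109 were called (limma). At an unadjusted p under 0.05 were 2 lower genes (3.46% of all genes were lower at this p) and 3 higher genes (1.95% of all genes), which is 4.59% of the list compared with 5.41% of all genes. The estimates were higher in Avil-ChR2 pups for 68 genes and lower for 41, with a median log2 difference of 0.017. The count at an unadjusted p moved with single pups, as did the share of all genes at this p. It was 12 without ChR2-flfl replicate 2 (7.46% of all genes), 10 without ChR2-flfl replicate 5 (7.19%), Avil-ChR2 replicate 2 (5.61%) or Avil-ChR2 replicate 6 (5.78%), 8 without ChR2-flfl replicate 3 (6.41%), and 3 without ChR2-flfl replicate 6 (4.75%), ChR2-flfl replicate 7 (4.39%) or Avil-ChR2 replicate 7 (4.65%).

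Among the other SNARE proteins, 8 of 10 had higher and 2 lower estimates, and 0 had an unadjusted p under 0.05. Snap47, a widely expressed SNAP-25 relative, had a log2 difference of 0.029. Of 20 genes for SNARE assembly, priming and disassembly, 10 were higher and 10 lower, again 0 at an unadjusted p under 0.05. Cplx2 (complexin 2, which clamps the assembled SNAREs) had a log2 difference of 0.020.

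Of 15 synaptotagmins and other calcium sensors, 9 had higher estimates and 6 lower ones. Syt12, a synaptotagmin that binds no calcium, was at 3.09, 4.22 and 5.37 CPM (lowest, median, highest) in ChR2-flfl and 4.63, 4.94 and 5.48 CPM in Avil-ChR2 pups. The lowest Avil-ChR2 pup was above the median of the controls, and the ranges overlapped. The log2 difference of 0.247 had an interval from 0.042 to 0.453 (limma, unadjusted p = 0.021, adjusted p = 0.847). The abundant Syt11 and Syt4 differed by 0.045 and -0.040. Of 14 further vesicle membrane proteins 9 were higher, with Dnajc5 (cysteine string protein, a chaperone of SNAP-25) at a log2 difference of 0.0052 and Syngr1 (synaptogyrin 1, related to synaptophysin) at 0.059. Of 9 genes for Rab3, the GTPase of the vesicle surface, and its effectors 6 were higher, with Rab3a at 0.038 and Rab3c at -0.016.

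Of 14 vesicular transporters and proton pump subunits 10 were higher. Slc17a7 (VGLUT1), which loads vesicles with glutamate, was at 417, 471 and 528 CPM in ChR2-flfl and 458, 507 and 556 CPM in Avil-ChR2 pups. In 7 of 8 Avil-ChR2 pups it exceeded the control mean. Its log2 difference of 0.115 had an interval from 0.012 to 0.218 (limma, unadjusted p = 0.030, adjusted p = 0.884). Slc17a6 (VGLUT2) had a log2 difference of -0.023, and Atp6v0a1, a subunit of the proton pump, of 0.036. Of 27 genes of vesicle endocytosis, 16 were higher and 11 lower. Cltc, the clathrin heavy chain, was at 742, 804 and 853 CPM in ChR2-flfl and 752, 764 and 789 CPM in Avil-ChR2 pups, Dnm3 (dynamin 3) at 183, 202 and 222 and at 177, 187 and 194 CPM, and Cltb (a clathrin light chain) at 123, 129 and 143 and at 127, 137 and 144 CPM. Cltc and Dnm3 exceeded the control mean in 0 of 8 Avil-ChR2 pups, and Cltb in 7 of 8. The log2 differences were -0.069, -0.095 and 0.072 (limma, unadjusted p = 0.021, 0.019 and 0.043, adjusted p = 0.847, 0.841 and 0.911). Snap91 (AP180, a clathrin adaptor) differed by 0.00074.

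**Figure D4:**
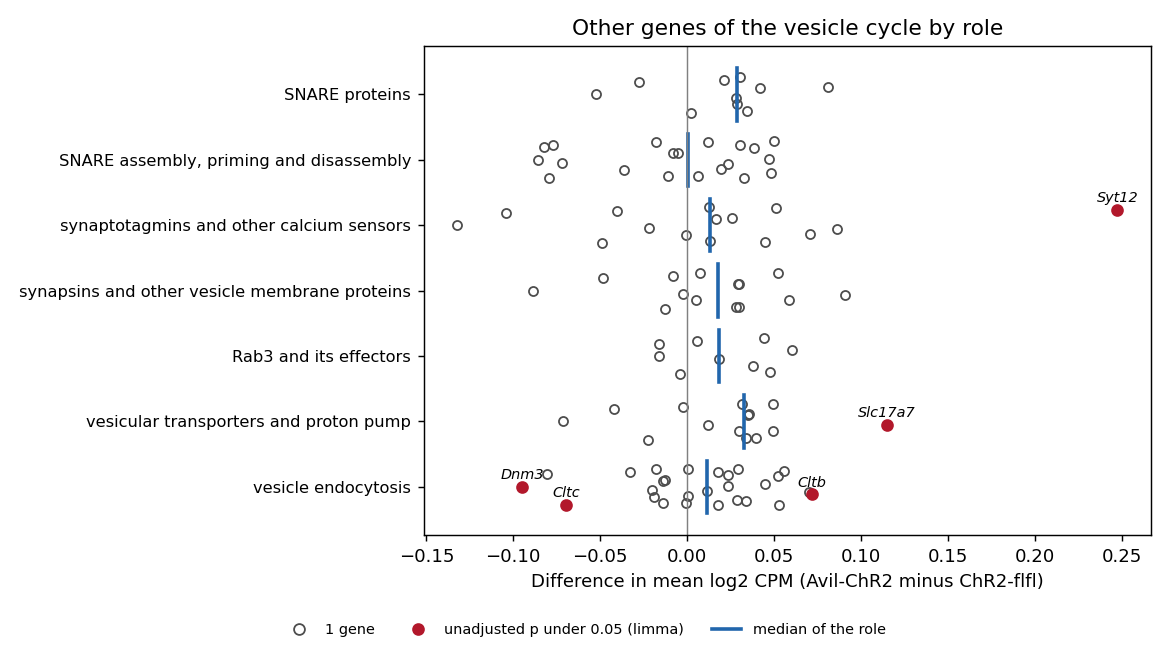
Differences in mean log2 CPM (x axis, Avil-ChR2 minus ChR2-flfl) of the 109 other genes of the vesicle cycle, 1 circle per gene, in rows by role (y axis). Red circles are the 5 genes with an unadjusted limma p under 0.05, of which 0 passed the adjustment, and blue lines are the medians of the roles, from 0.00039 to 0.033.

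The list was also ordered by the span of the gene on the chromosome. Of 44 list genes under 30 kb, 35 had higher estimates in Avil-ChR2 pups (median log2 difference 0.030), and of 26 list genes of at least 100 kb, 10 did (median -0.0096). Among the 15137 genes that averaged 0 or more on the log2 scale, 5246 of 8367 under 30 kb had higher estimates (median 0.015), and 827 of 2403 of at least 100 kb (median -0.021). In the class of 30 to 100 kb, 23 of 39 list genes had higher estimates (median 0.019), compared with 1939 of 4367 genes (median -0.0064). The list thus had the same order of medians as all genes, but its median was higher in each class. Stx1a, Vamp1, Vamp2 and Syp belong to the shortest class, Snap25 and Syn1 to the middle and Syt1 and Syn2 to the longest. Syn2, with the highest estimate, is a gene of 147725 bp. The genes of the active zone scaffold Pclo and Bsn had 323 ± 56.8 and 287 ± 41.6 CPM in ChR2-flfl and 264 ± 20.9 and 256 ± 27.6 CPM in Avil-ChR2 pups (log2 differences -0.277 and -0.158, limma, unadjusted p = 0.0029 and 0.055, adjusted p = 0.772 and 0.911).

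Between pups of a genotype, the pooled SD of the 8 genes ran from 0.058 (Syt1) to 0.158 (Vamp1) on the log2 scale. Its median was 0.071, compared with 0.099 over the 15137 genes. These genes were not matched to the 8 for level, and the spread also holds the error of counting, which is larger at low levels. Vamp1, the lowest of the 8 with 342 to 594 reads per pup, had the widest spread. ChR2-flfl replicate 1 was below the mean of all pups for 8 of 8 genes, with an average deviation of -0.141 on the log2 scale, and it held 429.5 CPM of Pclo, the highest of all pups, at 48495728 reads. Avil-ChR2 replicate 2 was also below the mean for 8 of 8 genes (-0.056), and Avil-ChR2 replicates 5 and 7 were above it for 8 of 8 (0.064 and 0.079). As a description, Pearson's r of each gene with the mean of the other 7 over 16 pups was from 0.395 (Syn1) to 0.912 (Vamp2), and 0.135 (Snap25) to 0.825 (Vamp2) without the 2 pups farthest from the median. The values share the depth and scaling of each library.

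Of 15129 other genes, those with a course over the 16 pups most like the mean of the 8 genes were Sprn, Slc6a7, Atp1b2, Ncf1 and Myadm, with Pearson's r of 0.939, 0.925, 0.922, 0.915 and 0.915 and Spearman's rho of 0.903, 0.906, 0.876, 0.900 and 0.874. Without the 2 pups farthest from the median of the mean, ChR2-flfl replicate 1 and Avil-ChR2 replicate 7, r was 0.841 (Myadm) to 0.875 (Sprn). The genotype differences of these 5 genes lay between 0.046 (Sprn) and 0.119 (Ncf1) on the log2 scale, and none was called (limma, adjusted p from 0.935 to 0.953). The 5 genes were picked by likeness over these same pups of both genotypes. Their correlations and the direction of their differences thus partly follow from that choice.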

How the data were processed

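According to the paper, reads of at least 50 bp from mRNA libraries were aligned to mm10 (GRCm38) with SeqMan NGen and counted per gene in ArrayStar. The deposited values are CPM after TMM scaling with edgeR by the authors, 1 column per pup, written with a decimal comma and left empty without reads. The value of 1 read was worked out for each pup, and 100% of entries up to 20000 reads came out whole (within 0.05), which gave the reads per pup. The libraries had no molecular identifiers, and the spread between pups was the error of all comparisons.

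Values were log2 transformed without a pseudocount, with a floor of -5, and genes above -5 in at least 12 of 16 pups were kept. Genotype, sex and interaction were fitted with limma 3.58.1 (eBayes with trend, R 4.3.3) and adjusted over all 21183 genes. The scripts were tested on simulated data. Exact permutation tests used Python 3.11.15. Lengths came from GENCODE vM21.

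The 8 genes were given by name, and the lists and tests were chosen with earlier results of these data known. Named were the 8 genes, entries overlapping them, vesicle cycle genes with an unadjusted p under 0.05 (at most 15), the 2 most abundant per role, Slc17a6, Slc17a7, Pclo, Bsn, Avil, 5 sex-linked genes, marker genes, and the 5 genes most like the mean of the 8. Some items of this rule are not reported here. The fits on runs of pup numbers and limma-voom on reads were chosen after seeing the data. Sex followed the labels. The markers that were not printed above (neurons, glia, vessels, blood, striatum, thalamus) had summed levels that overlapped between the genotypes.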

Additional observations from a re-analysis of the deposited data

Results flagged for a closer look

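In groups of 8 pups, a value was singled out where its gap to the nearest pup exceeded 0.526 of the range of the group (Dixon's test at 95%). This was so in 3 of 24 groups tested (8 genes and 4 ratios in 2 genotypes), and chance gives about 1 in 20 for a single group. The groups are not independent, because the ratios use these genes and their values go together over pups. The count is thus no test of an excess. All 3 were in ChR2-flfl pups. Syt1 (1039 CPM, next pup 1130) and Syp (644 CPM, next pup 719) were low in ChR2-flfl replicate 1. Stx1a was high in ChR2-flfl replicate 5 (389.6 CPM, next pup 361).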

How the results depend on the processing

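Of 232 recomputed log2 differences of single members, 228 kept their direction. The exceptions were Snap25 in pups 26 to 33 only (-0.0090), without ChR2-flfl replicate 1 (-0.017) and without Avil-ChR2 replicate 6 (-0.0072), and Syt1 without ChR2-flfl replicate 1 (-0.0054), and with 1 pup left out Snap25 ranged from -0.017 to 0.024 and Syt1 from -0.0054 to 0.028. In 4 of 232 the unadjusted p was under 0.05 (Syn1 once, Syn2 in 3). The count of members called for genotype, sex or interaction stayed at 0 under all alternatives run. The count at an unadjusted p under 0.05 was 1 in pups 35 to 42 only and 0 to 1 with 1 pup left out, both with limma and in the exact permutation tests. The vesicle cycle count of 5 was 9 with quantile normalization (5.54% of all genes at this p), 1 in pups 26 to 33 only (3.17%), 9 in pups 35 to 42 only (5.47%), and 3 to 12 with 1 pup left out (4.39% to 7.46%). With 1 pup left out, the log2 ratios differed by -0.015 to 0.050 (Vamp1 to Vamp2), -0.046 to -0.0042 (Syn1 to Syn2) and 0.079 to 0.176 (Slc17a7 to Slc17a6). In pups 26 to 33 only, the sign turned for Syn1 to Syn2 (0.047), and in pups 35 to 42 only for Vamp1 to Vamp2 (-0.027), while Syn1 to Syn2 passed the threshold (-0.098). With the longest transcript as the length, 6 of 8 levels kept their place. Other causes were not tested.

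The genotypes share replicate numbers, which are serial numbers of different animals. Deviations of same-numbered pups correlated from -0.344 to 0.389, over 0.1 in 3 of 8 pairs, and 1 of 8 Avil-ChR2 pups was closest to its own number. With the replicate block, 0 members and 6 vesicle cycle genes had an unadjusted p under 0.05, and no call changed. The planned fits of reads with edgeR and DESeq2 were not run. The limit of the data is the spread between pups, which left intervals of up to 16.2% (Vamp1).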
